A study of Drosophila melanogaster with 4 samples.

Results

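The proteins described here build the mitochondrial ribosome of Drosophila melanogaster. Members were the array probes with exactly 1 gene symbol beginning with mRpL, for the large subunit, or mRpS, for the small subunit, followed by a number. This took 70 of the 13147 probes with 1 symbol, 45 for the large and 25 for the small subunit, with 1 probe per gene. All 70 symbols were the same in RefSeq. The tested RNA came from GMR X GFP-dASF/SF2 larvae, in which the GMR driver, active in the developing eye, expresses GFP-tagged dASF/SF2, a splicing factor of the SR family. The control RNA came from GMR X GFP-NLS larvae, in which the same driver expresses GFP with a nuclear localisation signal. Both RNAs were recovered with a monoclonal anti-GFP antibody from pooled anterior parts of 600 third-instar larvae, and the study asked which mRNAs dASF/SF2 may bind in the eye. Each of 4 two-colour arrays set a dASF/SF2 immunoprecipitate (IP) against a GFP-NLS IP, and the 4 arrays made up 2 replicates, each a dye-swapped pair. GMR drives the tagged protein in the eye region, and its absence elsewhere was not checked here. The extracts held every tissue of the anterior end, and no unprecipitated RNA was part of the comparison. Fewer cells of a type, less RNA per cell and less RNA recovered therefore cannot be told apart.

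Mitochondrial ribosomes translate the few mRNAs of the mitochondrial genome, which encode core subunits of the respiratory chain. Their RNA is made inside the organelle, but their proteins are encoded by nuclear genes, translated in the cytosol and imported. Some have counterparts in bacterial ribosomes, and others were added in mitochondria and coat the particle. In flies, lowered function of single mitochondrial ribosomal proteins is known to slow growth and to cause bang sensitivity, a seizure-like response to mechanical shock.

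The values are log ratios deposited by the authors, with the base of the logarithm and the numerator not stated. Arrays are named here by the dye of the dASF/SF2 RNA, as Cy5 arrays and Cy3 arrays, and pairs of array values run in the order of replicates 1 and 2. The array medians were 0.01 and 0.013 (Cy5 arrays) and 0.006 and 0 (Cy3 arrays). Subtracting each array's median and then turning the sign of the Cy3 arrays gave the turned values. Where the deposited ratio is Cy5 over Cy3, positive turned values stand for more RNA in the dASF/SF2 IP than in the GFP-NLS IP, and where it is Cy3 over Cy5, for less. If the deposited ratio already sets 1 IP over the other, the unturned mean is the comparison of the IPs. The direction is therefore not settled, and the sides are called positive and negative throughout. Between the deposited values of a dye-swapped pair, Pearson's r over the 12847 probes measured on all 4 arrays was 0.236 (Spearman's rho 0.191) in replicate 1, and -0.054 (rho -0.467) in replicate 2. Over the 10850 of these with 1 symbol, r was 0.169 in replicate 1 and -0.565 in replicate 2.

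The mitochondrial ribosomal proteins spread to both sides of 0, and none passed the threshold when each dye-swapped pair was averaged to 1 replicate. Of the 70 members, 69 were measured on all 4 arrays and tested, 44 of the large and 25 of the small subunit. Their median turned mean was 0.0048, with quartiles of -0.073 and 0.109, against a median of 0.0042 with quartiles of -0.104 and 0.094 over all tested probes. Positive turned means belonged to 36 members (52.2%, against 51.3% of all tested probes) and negative ones to 33. In limma's moderated test with Benjamini-Hochberg adjustment over all probes, 0 of 69 members had an adjusted p under 0.05, against 0% of all tested probes, and the members' lowest adjusted p was 0.122. An unadjusted p under 0.05 in the same test was found for 14 members (20.3%), against 23.2% of all tested probes, so the members' share lay near the background. These 14 were divided into 11 positive and 3 negative members, where 9.57% of all tested probes were positive at that level and 13.6% negative. Over tested probes with 1 symbol these shares were 22.2% in all, 8.15% positive and 14.1% negative. The count of 14 was 5 without the Cy5 array of replicate 1 and also 5 without that of replicate 2. Wherever 1 array was left out, the other array of that pair stood alone for its replicate. It then weighed as much as the average of the other pair.

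A fit of the 4 arrays with the replicate number as a block called 5 of 69 members, against 8.71% of all tested probes. They were mRpS33, mRpS17, mRpL33, mRpL48 and mRpL23, all positive, with a lowest adjusted p of 0.0334 in limma. The estimated correlation within a pair was -0.408, which makes the standard errors smaller than for independent arrays, and with the arrays as independent the count of members was 0. Leaving out the Cy5 array of replicate 1 gave calls for 1.41% of all tested probes, and leaving out the Cy3 array of replicate 1 for 0.475%, with 0 members among either.

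All 4 turned arrays gave 1 sign for 15 of the 69 members (21.7%), against 28.1% of all tested probes. It was positive for 12 members (17.4%), against 12.1% of all tested probes, and negative for 3 (4.35%), against 16.1%. Over tested probes with 1 symbol the shares were 29.3% in all, 12.9% positive and 16.5% negative. An absolute turned mean above 0.2 belonged to 11 members (15.9%), against 20.1% of all tested probes. The largest of these, that of mRpS33, would be a 1.28-fold ratio if the values are log2, 1.42-fold if natural logs and 2.25-fold if log10.

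**Figure D1:**
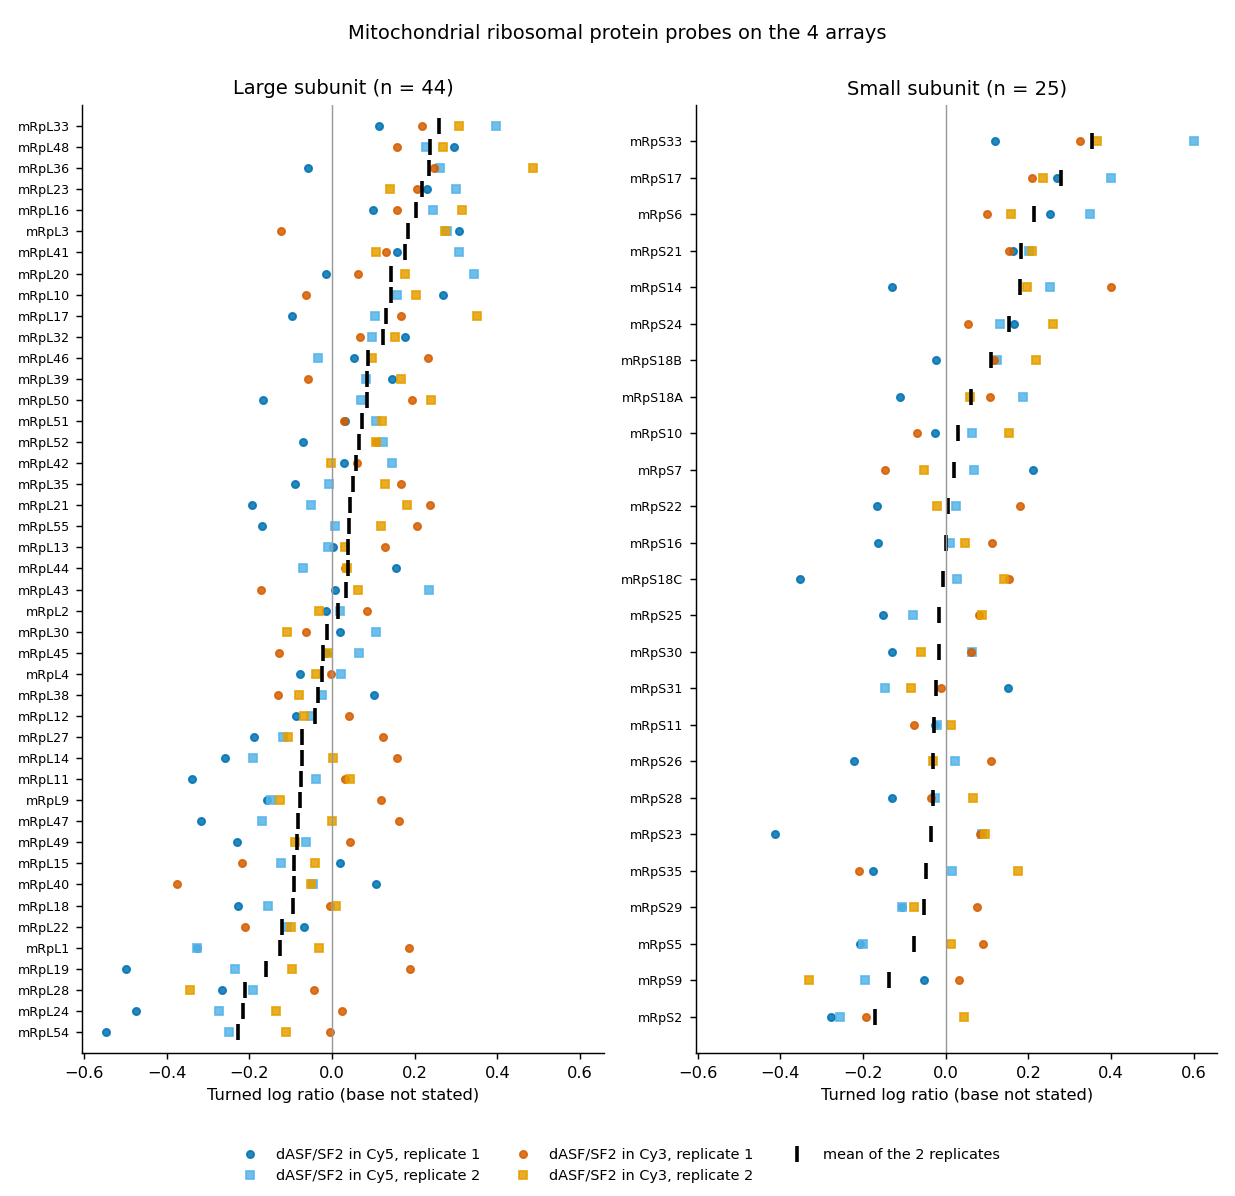
Turned log ratio (horizontal axis, base not stated) of the 44 large and 25 small subunit members measured on all 4 arrays, 1 member per line, sorted by the mean of the 2 replicates (black bar), with 1 point per array. The members run from mRpL54 at -0.228 to mRpS33 at 0.353, and for most the 4 points lie on both sides of 0.

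Small subunit members held the most positive values. mRpS33, a protein of the small subunit added in mitochondria, had turned values of 0.12 and 0.6 on the Cy5 arrays, and 0.325 and 0.366 on the Cy3 arrays. The mean was 0.353 ± 0.184 (SD, n = 2 replicates), and limma's adjusted p was 0.122. All 4 arrays were positive, and the Cy5 arrays were its lowest and its highest. mRpS17, whose bacterial counterpart binds the small ribosomal RNA early in assembly, had 0.269 and 0.399 on the Cy5 arrays, and 0.208 and 0.235 on the Cy3 arrays. Its mean was 0.278 ± 0.056, with an adjusted p of 0.124 in limma, and both Cy5 arrays lay above both Cy3 arrays.

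mRpS6, whose bacterial counterpart pairs with protein S18, had turned values of 0.253 and 0.348 on the Cy5 arrays and 0.099 and 0.157 on the Cy3 arrays, for a mean of 0.214 ± 0.054. mRpS21 had 0.163 and 0.202 on the Cy5 arrays, and 0.153 and 0.209 on the Cy3 arrays, with a mean of 0.182 ± 0.034. It had a narrow range over the arrays, and its unturned mean was 0.0007. mRpS24, the counterpart of bacterial S3 despite its number, had 0.164 and 0.132 on the Cy5 arrays and 0.054 and 0.26 on the Cy3 arrays, a mean of 0.153 ± 0.062. Adjusted p-values in limma's moderated test were 0.158, 0.195 and 0.252 for these members, so their positive sign on 4 of 4 arrays is given as a value and not as a call.

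In the large subunit, mRpL33 headed the positive side. This member, a counterpart of one of the small bacterial proteins, had turned values of 0.114 and 0.396 on the Cy5 arrays, and 0.217 and 0.307 on the Cy3 arrays. Its mean was 0.259 ± 0.132 (SD, n = 2), with an adjusted p of 0.146 in limma. mRpL48, a mitochondrial addition in the central protuberance, the crest of the large subunit, had 0.296 and 0.226 on the Cy5 arrays, and 0.158 and 0.267 on the Cy3 arrays, for a mean of 0.237 ± 0.014. Its replicates lay closer together than those of mRpL33, and limma gave it an adjusted p of 0.138.

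mRpL23, which sits at the exit of the tunnel through which the new chain leaves, had 0.23 and 0.299 on the Cy5 arrays, and 0.206 and 0.139 on the Cy3 arrays. Its replicate means were 0.218 and 0.219, the mean was 0.219 ± 0.0007, and the adjusted p was 0.149 in limma. With so small an SD from 2 replicates the array values are the better guide to its spread. mRpL16, whose bacterial counterpart lies near the site that receives the incoming tRNA, had 0.099 and 0.243 on the Cy5 arrays and 0.158 and 0.313 on the Cy3 arrays. Both arrays of replicate 2 lay above both of replicate 1 for mRpL16, and the mean was 0.203 ± 0.106 (adjusted p = 0.188 in limma). mRpL41, a mitochondrial addition, had 0.157 and 0.307 on the Cy5 arrays, and 0.131 and 0.107 on the Cy3 arrays. It averaged 0.176 ± 0.045 (limma, adjusted p = 0.203).

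On the negative side, the members with 1 sign on all 4 turned arrays were mRpL54, mRpL28 and mRpL22, all of the large subunit. mRpL54, a protein added in mitochondria, had turned values of -0.547 and -0.249 on the Cy5 arrays, and -0.005 and -0.112 on the Cy3 arrays. The orientations did not overlap, and the value on the Cy3 array of replicate 1 was almost 0. Its mean of -0.228 ± 0.068 (adjusted p = 0.149 in limma) was -0.093 without the Cy5 array of replicate 1 and -0.364 without the Cy3 array of replicate 1. mRpL28, a counterpart of bacterial L28, had -0.267 and -0.191 on the Cy5 arrays and -0.044 and -0.345 on the Cy3 arrays, for a mean of -0.212 ± 0.080 (adjusted p = 0.169 in limma). mRpL22, a lining protein of the exit tunnel, had -0.068 and -0.11 on the Cy5 arrays, and -0.212 and -0.1 on the Cy3 arrays. mRpL22 averaged -0.122 ± 0.025 (limma, adjusted p = 0.331).

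No small subunit member was negative on all 4 turned arrays. The lowest of that subunit was mRpS2, a counterpart of bacterial S2, with -0.278 and -0.255 on the Cy5 arrays, and -0.194 and 0.043 on the Cy3 arrays. The Cy3 array of replicate 2 was its exception in sign, and the mean was -0.171 ± 0.092 (adjusted p = 0.225 in limma), or -0.097 without the Cy5 array of replicate 2.

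The other 3 members at an unadjusted p under 0.05 (limma), named here after their values were seen, each had 1 array of the opposite sign. mRpL36, whose counterpart is one of the smallest bacterial ribosomal proteins, had turned values of -0.058 and 0.26 on the Cy5 arrays, and 0.246 and 0.486 on the Cy3 arrays. mRpS14 likewise was negative on the Cy5 array of replicate 1, at -0.13, and had 0.253 on the other array of that orientation and 0.4 and 0.196 on the Cy3 arrays. mRpL24, at the tunnel exit, had -0.474 and -0.274 on the Cy5 arrays and 0.025 and -0.135 on the Cy3 arrays. Their means were 0.234 ± 0.197, 0.180 ± 0.063 and -0.214 ± 0.014, and their adjusted p-values in limma were 0.198, 0.202 and 0.154. The mean of mRpL24 was -0.090 without the Cy5 array of replicate 1 and -0.339 without the Cy3 array of replicate 1, and that of mRpS14 was 0.047 without the Cy3 array of replicate 1 and 0.312 without the Cy5 array of replicate 1.

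The remaining member, mRpL37, a mitochondrial addition to the large subunit, was measured on replicate 2 alone and entered no test. Its turned value was 0.128 on the Cy5 array and -0.971 on the Cy3 array, so its arrays were of opposite sign, and the negative one lay below the values of the other members.

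The next members are given by their place in the ribosome, as a description, with the places chosen after the values were seen. Around the catalytic centre of the large subunit, mRpL2, mRpL3 and mRpL4 had turned means of 0.015 ± 0.029, 0.184 ± 0.129 and -0.025 ± 0.022 (SD, n = 2). In the stalk that engages the translation factors, mRpL10 had 0.141 ± 0.055, mRpL11, at its base, -0.076 ± 0.111, and mRpL12, the stalk protein, -0.041 ± 0.026. At the tunnel exit, mRpL23 lay on the positive side, and mRpL22 and mRpL24 on the negative side. mRpL17 and mRpL32, of the same place, were positive, with 0.131 ± 0.135 and 0.124 ± 0.002. There mRpL47, the counterpart of bacterial L29, had -0.082 ± 0.005, and mRpL45, which contacts the inner membrane in mammals, had -0.022 ± 0.071. The 3 mRpS18 paralogues had 0.060 ± 0.089 (mRpS18A), 0.109 ± 0.088 (mRpS18B) and -0.0077 ± 0.130 (mRpS18C). mRpS29, the counterpart of the mammalian GTP-binding protein DAP3, had -0.053 ± 0.053. Adjusted p-values of the members first named in this paragraph ran from 0.223 to 0.963 in limma's moderated test. Without 1 array the turned mean reached the opposite sign for mRpL47 (0.039 without the Cy5 array of replicate 1), mRpL11, mRpS18C, mRpL2 and mRpL45. The arrays then left for mRpL47 had -0.169 (Cy5, replicate 2), and 0.162 and -0.001 (Cy3), with 0.162 standing alone for replicate 1.

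The difference between the large and the small subunit did not keep its sign between replicates or arrays. The median turned mean was 0.035 over 44 large subunit members and -0.0078 over 25 small subunit members, a difference of 0.043. By array the difference of the medians, large minus small, was 0.074 and -0.028 on the Cy5 arrays, and -0.018 and -0.034 on the Cy3 arrays, positive on 1 of 4 arrays. By replicate it was 0.030 and -0.0088, with an SD of 0.027. With means in place of medians the difference was -0.018, so its sign rested on that choice. Members are not replicates, and 2 replicates cannot give a two-sided p under 0.5 in an exact test, so no test was made.

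The subunits overlapped in range. Turned means ran from -0.228 to 0.259 in the large and from -0.171 to 0.353 in the small subunit, with SDs over members of 0.128 and 0.126. An unadjusted p under 0.05 in limma was found for 9 of 44 large (20.5%) and 5 of 25 small subunit members (20%), against 23.2% of all tested probes. One sign on all 4 turned arrays was found for 10 large (22.7%) and 5 small subunit members (20%), against 28.1% of all tested probes. Of the 9 large subunit members 6 were positive and 3 negative, and all 5 of the small subunit were positive, where 9.57% of all tested probes were positive at that level and 13.6% negative. Mammalian counterparts of mRpS30 and mRpS18A sit in the large subunit despite their names. Counted there, they left the turned difference at 0.043.

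**Figure D2:**
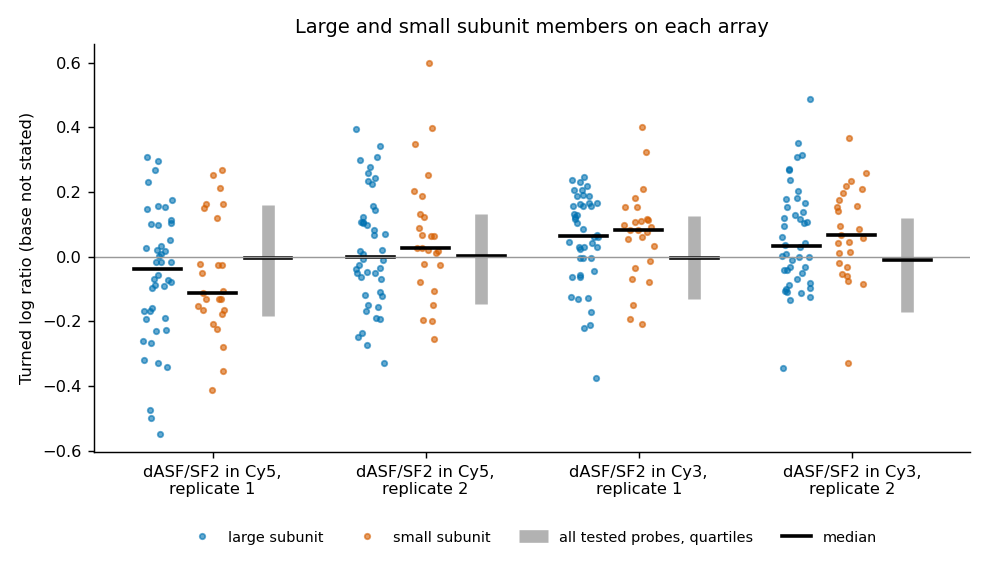
Turned log ratio (vertical axis, base not stated) of each large (blue) and small (orange) subunit member on each array, with black bars for the medians and grey bars for the quartiles of all tested probes. The small subunit median is below that of the large subunit on the Cy5 array of replicate 1 (-0.111 and -0.037 on that array) and above it on the other 3 arrays.

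On single arrays the median of both subunits together lay on either side of 0. The median of all 69 members was -0.068 and 0.021 on the Cy5 arrays, and 0.081 and 0.046 on the Cy3 arrays, against -0.005, 0.001, -0.004 and -0.009 over all tested probes on the same arrays. The Cy5 array of replicate 1 was thus the one on which the members lay below the rest. By replicate the members' median was -0.0095 and 0.028, and the median over both was 0.040 without that array.

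Low numbers in the standard numbering mark proteins named after bacterial counterparts, and most higher numbers mark mitochondrial additions. Large subunit proteins numbered up to 36 and small subunit proteins numbered up to 21 were taken as the low-numbered members, and mRpS24 and mRpL47 are counterparts of bacterial proteins among the high-numbered ones. The 41 measured low-numbered members had a median turned mean of 0.015 with an SD over members of 0.137, and the 28 high-numbered members had -0.0054 with an SD of 0.113. An unadjusted p under 0.05 in limma was found for 10 low-numbered (24.4%) and 4 high-numbered members (14.3%), against 23.2% of all tested probes, and the test of that difference was not made, since members are not replicates. Within the small subunit, 9 of 14 low-numbered and 3 of 11 high-numbered members had positive turned means. In the large subunit the order was the other way round, with 13 of 27 low-numbered and 11 of 17 high-numbered members positive, and 51.3% of all tested probes had positive turned means.

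The agreement of single members between the replicates was closer for turned than for unturned means. Across the 69 members the turned means of the 2 replicates correlated at 0.722 (Pearson) and 0.698 (Spearman), as a description over genes that share the same 4 arrays and dye orders, and 0.548 and 0.545 over all tested probes. By subunit r was 0.777 over 44 large and 0.633 over 25 small subunit members. Unturned means of the replicates correlated at 0.369 (Pearson) and 0.393 (Spearman) over the members, and at 0.160 and 0.211 over all tested probes. By subunit the unturned r was 0.517 (large) and 0.084 (small). The sign of the turned mean was the same in both replicates for 54 of 69 members (78.3%), against 70.3% of all tested probes. The median SD of the turned means between the replicates was 0.055 among members and 0.077 among all tested probes.

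**Figure D3:**
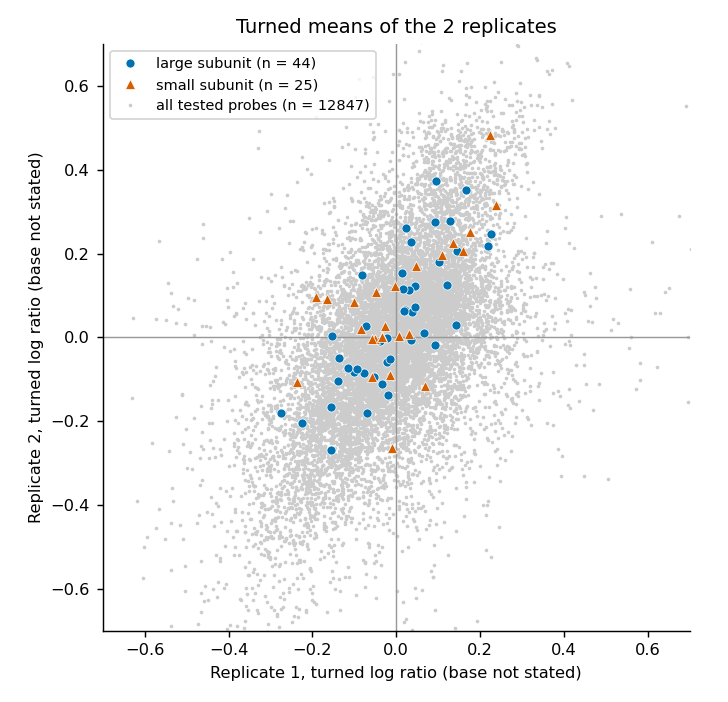
Turned mean of replicate 2 (vertical axis) against that of replicate 1 (horizontal axis), in log-ratio units of unstated base, for the members of the large (circles) and small subunit (triangles) over all 12847 tested probes (grey), of which 88 lie outside the axes. The members run along the same diagonal as the grey probes, and mRpS33 is the highest member in replicate 2.

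The replicates differed in how their own 2 arrays related. Across the 69 members, values not turned correlated at an r of 0.11 (rho 0.101) between the dye-swapped arrays of replicate 1, and at -0.717 (rho -0.725) between those of replicate 2. In replicate 2 the members thus changed sides with the dyes, and in replicate 1 they showed no such pattern. Arrays of the same orientation had an r of 0.649 (Cy5 arrays) and 0.391 (Cy3 arrays).

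**Figure D4:**
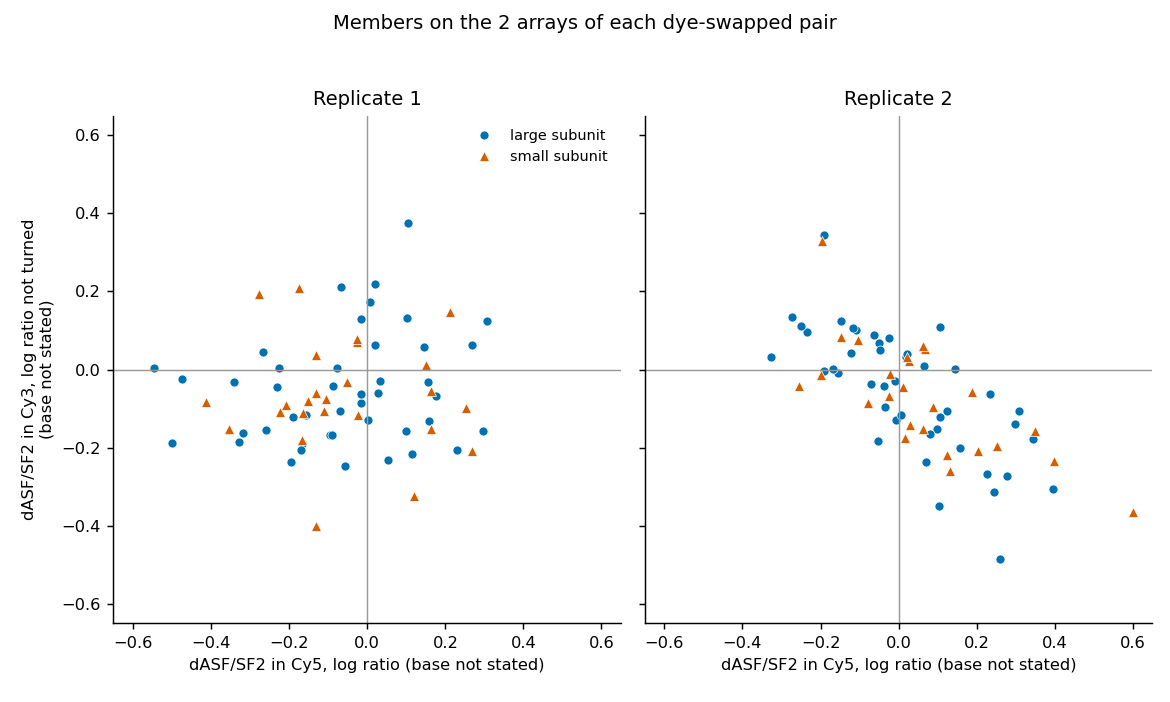
Log ratio, not turned and of unstated base, of each member on the Cy3 array (vertical axis) against the Cy5 array (horizontal axis), for replicate 1 (left) and replicate 2 (right). The points form a falling band in replicate 2 (r of -0.717) and a cloud in replicate 1 (r of 0.11).

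With the arrays not turned, 25 of the 69 members had positive means (36.2%, against 53.2% of all tested probes) and 44 negative ones, and the median was -0.027 against 0.0085 over all tested probes. In limma's moderated test 0 members had an adjusted p under 0.05, against 0% of all tested probes. An unadjusted p under 0.05 was found for 1 member (1.45%), against 5.57% of all tested probes. This was mRpL1, on the negative side (3.44% of all tested probes), named after its value was seen, which averaged -0.203 (limma, adjusted p = 0.752). That count was 5 without the Cy3 array of replicate 2 and 0 without any 1 of the other arrays. The subunits had medians of -0.022 (large) and -0.031 (small).

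One sign on all 4 unturned arrays was found for 8 members (11.6%), against 13.6% of all tested probes, 6 negative (against 6.45%) and 2 positive (against 7.15%). The 5 named on the negative side were mRpL21 with an unturned mean of -0.166 ± 0.069 (SD, n = 2), mRpL14 with -0.153 ± 0.078, mRpS5, whose bacterial counterpart lies by the mRNA entry, with -0.128 ± 0.030, mRpL11 with -0.113 ± 0.103 and mRpS25, a mitochondrial addition, with -0.100 ± 0.023. On the positive side were mRpS7, of the head of the small subunit, with 0.120 ± 0.084 and mRpL30 with 0.075 ± 0.047. Adjusted p-values of these 7 in limma ran from 0.752 to 0.820. The mean of mRpL11 was -0.036 without the Cy5 array of replicate 1 and -0.190 without the Cy3 array of replicate 1, and that of mRpS5 was -0.081 without the Cy5 array of replicate 2.

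Genes that act with the mitochondrial ribosome were set beside its proteins. These included tko, the small subunit protein of the bang-sensitive mutant technical knockout, and bonsai, a small subunit protein required for growth. Both are mitochondrial ribosomal proteins whose symbols do not match the rule, so they were not among the members. tko had turned values of 0.04 and 0.28 on the Cy5 arrays, and 0.17 and 0.052 on the Cy3 arrays, a mean of 0.136 ± 0.043 that was positive on 4 of 4 arrays. bonsai had -0.232 and -0.051 on the Cy5 arrays, and 0.071 and -0.05 on the Cy3 arrays, a mean of -0.066 ± 0.021. Without the Cy5 array of replicate 2 the mean of tko was 0.079. Without the Cy5 array of replicate 1 the mean of bonsai was 0.010, with the Cy3 value of 0.071 standing alone for that replicate. Their adjusted p-values in limma's moderated test were 0.292 and 0.586.

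None of the other mitochondrial lists held a gene past the threshold in limma. The 12 genes listed as mitochondrial translation factors included mTTF, mTerf3 and mTerf5, which belong to the mTERF family. In limma, 1 positive (8.33%) and 2 negative genes (16.7%) had an unadjusted p under 0.05, against 9.57% and 13.6% of all tested probes. The median turned mean of the list was -0.027. The largest values were those of mTerf3, needed in flies for assembly of the mitochondrial ribosome, at 0.544 ± 0.324, the elongation factor mEFG1 at -0.268 ± 0.038, and mEFTs, the exchange factor of the elongation factor that delivers tRNAs, at -0.266 ± 0.013. The small SD of mEFTs is between averaged pairs, and its arrays spread more widely. Its turned values were -0.499 and -0.288 on the Cy5 arrays, and -0.015 and -0.263 on the Cy3 arrays. Of 14 mitochondrial tRNA synthetases, 11 were measured on all arrays, with a median of -0.015. Among these, 1 (9.09%) had an unadjusted p under 0.05 in limma, against 23.2% of all tested probes. LeuRS-m had -0.392 ± 0.036 and was negative on all 4 turned arrays, MetRS-m had 0.260 ± 0.454 with 1 array at 1.248, the Cy3 array of replicate 1, and TrpRS-m had -0.171 ± 0.084. Without the Cy3 array of replicate 1 the mean was -0.074 for MetRS-m and -0.080 for TrpRS-m, and without the Cy5 array of replicate 1 that of mEFTs was -0.145.

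Genes of mitochondrial transcription and mtDNA maintenance had a median turned mean of -0.160 over the 4 listed genes measured on all arrays. Of these, 2 had an unadjusted p under 0.05 in limma, both negative, against 13.6% of all tested probes. Means were negative for 3 of these genes and positive for mtSSB, which is named here to complete the 4. TFAM, Mtp and mtTFB2, also listed, had no value on the Cy3 array of replicate 1 and were not tested. mtSSB had 0.139 ± 0.058 (SD, n = 2) and was positive on all 4 turned arrays. bsf, an RNA-binding protein of mitochondrial mRNAs, had -0.260 ± 0.193, the mitochondrial RNA polymerase gene PolrMT -0.178 ± 0.011 and the helicase gene mtDNA-helicase -0.143 ± 0.137. PolrMT had turned values of 0.098 and -0.108 on the Cy5 arrays, and -0.438 and -0.262 on the Cy3 arrays. Without the Cy3 array of replicate 1 the mean was -0.044 for PolrMT and -0.035 for mtDNA-helicase, and without the Cy5 array of replicate 1 that of bsf was -0.163. Cytosolic ribosomal proteins, listed by symbol and with RpL24-like, RpLP0-like and RpL7-like among them, were measured by 43 probes of 38 genes. Their median was -0.0030, and the SD over probes was 0.114, against 0.127 over the 69 mitochondrial members. An unadjusted p under 0.05 in limma was found for 7 of these probes. Of the 7, 1 was positive (2.33%) and 6 negative (14.0%), RpL24-like among the latter, against 9.57% and 13.6% of all tested probes. The difference from the mitochondrial members was not tested.

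**Figure D5:**
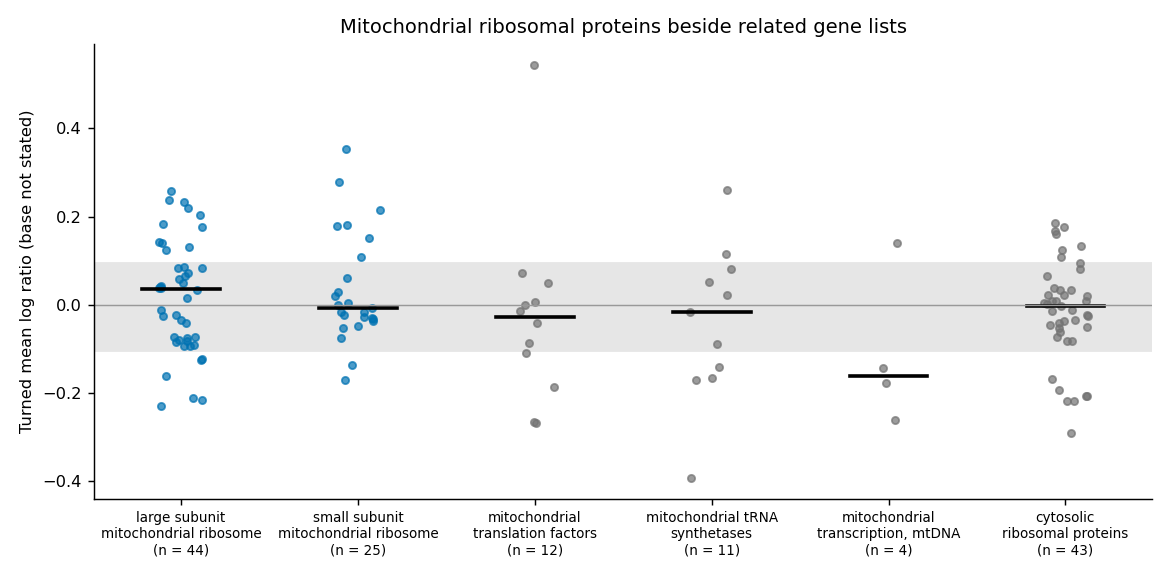
Turned mean log ratio (vertical axis, base not stated) of the large and small subunit members (blue) and of the genes or probes of related lists (grey), with black bars for the medians and a grey band for the quartiles of all tested probes. Medians of the lists lie within the band except for mitochondrial transcription and mtDNA maintenance at -0.160. From that list the 4 genes measured on all arrays are shown, 1 of them with a positive mean. The list of mitochondrial translation factors includes mTTF, mTerf3 and mTerf5.

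Tissue markers measured by ratio give no level, so the labelled tissue could not be checked by them. The median turned mean was 0.022 over 9 eye disc markers, 5 of them positive, and -0.146 over 6 probes of muscle markers, all negative. It was -0.186 over 3 fat body markers, all negative, and 0.302 over 6 glial markers, 5 of them positive. Over 8 salivary gland markers, 3 of them positive, it was -0.053, with means from -0.30 (Sgs8) to 0.52 (ng2). The part of these markers in the members' values was not tested. SF2, the gene of the transgene, had -0.225 ± 0.095 (SD, n = 2), negative on 4 of 4 turned arrays (limma, adjusted p = 0.158).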

How the data were processed

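RNA of dASF/SF2 and GFP-NLS immunoprecipitates was compared on 4 two-colour arrays. The values are scores deposited by the authors as log ratios. Neither labels nor headers state the base, numerator, background correction, normalisation or software. A value of -10000, in 73 cells, was read as missing. No signals were used, so the number of arrays limits the precision.

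Gene symbols came from GEO's platform annotation, checked against RefSeq by Entrez identifier. Arrays were centred on their medians, and 12847 probes measured on every array, 10850 of them with 1 symbol, were tested. Dye-swapped arrays of a replicate number, paired by the series' design text, were averaged. The replicate mean, from 2 replicates, was compared with 0, turned and unturned, by limma 3.58.1 under R 4.3.3. The fit was eBayes after lmFit, with a threshold of 0.05 after Benjamini-Hochberg adjustment. Simulated data were passed through the same code, with a required check on the sign of the largest effects only. Nothing states that replicates came from separate pools of larvae, so p-values may measure technical spread. Figures were drawn with matplotlib 3.10.9.

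Members and lists were chosen with earlier results of these data known. Named were up to 10 members a side with 1 sign on all turned arrays, up to 5 a side likewise unturned, the extremes of each subunit, members with missing values, tko, bonsai, up to 3 genes of each mitochondrial list, and SF2. No sequences were used here.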

Additional observations from a re-analysis of the deposited data

Results flagged for a closer look

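Members whose turned values lay on 1 side on both Cy5 arrays (dASF/SF2 in Cy5) and on the opposite side on both Cy3 arrays were singled out, and for each the difference between the orientations was not tested. The turned mean of the Cy5 arrays minus that of the Cy3 arrays was -0.332 for mRpL21, -0.306 for mRpL14, -0.256 for mRpS5, -0.226 for mRpL11, -0.199 for mRpS25 and -0.197 for mRpL35. It was 0.240 for mRpS7 and 0.151 for mRpL30. These are the 8 members with 1 sign on all 4 unturned arrays, 11.6% of the members measured, against 13.6% of all tested probes.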

How the results depend on the processing

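With the replicate block (4 arrays, estimated correlation -0.408 within a pair), limma called 1119 of all probes (8.71%) and 5 of the 69 members, mRpS33, mRpS17, mRpL33, mRpL48 and mRpL23, all positive. A negative correlation makes the standard errors smaller than for independent arrays, on which 0 were called, with or without a dye term. Leaving out 1 array each gave 0 to 184 calls over all probes and 0 among members. It gave 5 to 12 members at an unadjusted p under 0.05, 0 to 5 unturned, and 20 to 31 with 1 sign, over fewer arrays. The members' median ran from -0.0065 to 0.040 turned and from -0.064 to -0.014 unturned, and the difference between subunits from -0.017 to 0.047 turned and from 0.0027 to 0.026 unturned. With 1 value per gene, 3 genes passed, none a member, and the lowest adjusted p of a member was 0.0791 in limma. With at least 1 array per replicate, 9 members had an unadjusted p under 0.05. Unturned, that count was 0 with that filter, without centring and on 4 independent arrays, 2 with a dye term or 1 value per gene, and 5 with the replicate block. With means over members the turned difference between subunits was -0.018. With mRpS30 and mRpS18A counted as large, chosen after seeing the data, the unturned one was 0.027.

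Each mean without 1 array was taken over the replicates, with the array left in the broken pair standing alone for its replicate. A plain mean of the remaining arrays was not taken, and its sign can differ. Without 1 array, turned means taken over the replicates crossed 0 for 25 of the 69 members. Among the members named by rule these were mRpL14 (-0.177 to 0.031), mRpL21 (-0.065 to 0.151), mRpL11 (-0.169 to 0.017), mRpL30 (-0.066 to 0.043), mRpS25 (-0.074 to 0.043) and mRpS7 (-0.070 to 0.109). The cause was not tested.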
